A study of Rattus norvegicus with 10 samples.

Results

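Glucose transporters and glucose-sensing genes were examined in fetal rat hearts as a set of 9 genes out of the 18025 listed in the deposited expression table, taken by gene symbol from a list of glucose uptake and sensing genes that was drawn up with earlier results of these data known. The set held 4 transporters of the Slc2a (GLUT) family, the α-arrestins *Txnip* and *Arrdc4*, and the 3 transcription factor genes *Mlx*, *Mlxip* and *Mlxipl*. All 9 were listed, and all 9 passed the filter on low values.

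Messenger RNA was sequenced from heart tissue of wild-type Sprague-Dawley fetuses at embryonic day 19.5, with 5 libraries in the control (CON) group and 5 in the hyperglycemia (HG) group. Mothers of both groups, 3 months old, mated with normoglycemic males and were injected on 3 successive days, HG mothers with streptozotocin (STZ), a toxin of the insulin-producing β cells, and CON mothers with its citric acid buffer. Diabetes of the STZ-treated rats was checked 7 days later as a non-fasting blood glucose above 16 mM. The sources used here state neither which hearts shared a litter nor the sex of the fetuses, so that littermates may be counted as separate libraries. As only HG mothers received STZ, its exposure cannot be told apart from high maternal glucose. The labels name heart tissue, although a figure legend of the study speaks of isolated cardiomyocytes, so it is not settled whether other cells were removed. Marker genes of endothelial cells, fibroblasts and macrophages were present, and 8 of 8 cardiomyocyte genes were present, with summed levels of 19138 to 20324 FPKM in CON and 15338 to 17838 in HG. FPKM is a level corrected for gene length and library size, so levels of different genes can be set beside each other.

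GLUT proteins let glucose enter cells down its gradient. GLUT1 (*Slc2a1*) is the main carrier of the fetal heart, GLUT4 (*Slc2a4*) moves to the surface of muscle and fat cells in response to insulin and becomes the main carrier of the heart after birth, GLUT3 (*Slc2a3*) has a high affinity for glucose, and GLUT8 (*Slc2a8*) resides on membranes inside the cell. Glucose 6-phosphate activates the factors MondoA (*Mlxip*) and ChREBP (*Mlxipl*), which pair with Mlx, bind E-box elements and switch on *Txnip* and *Arrdc4*, whose proteins in turn lower glucose uptake by drawing GLUT proteins from the surface.

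Because MondoA and ChREBP bind E-box elements, the promoters of the 9 genes that hold such elements are shown first, with that of 1 other target gene. RefSeq promoters (GRCr8, 250 bases before to 50 after the start) were at hand for 6 of the 9 genes and not for *Slc2a3*, *Slc2a4* and *Txnip*. The E-box CACGTG, which reads the same on both strands, occurred in 2 of these 6 genes, *Arrdc4* and *Mlx*, and in 6.42% of all 33469 promoters. The set was counted by gene and the background by promoter. The 33469 promoters belong to 27457 genes, since a gene such as *Mlxipl* can have more than 1. The composite element of ChREBP was searched as CACGNG on either strand, 2 copies in a row with NNNNN between. This pair was found in 24 of all promoters (0.0717%) and in 0 of the 6 genes of the set. Among 13 promoters of other target genes of MondoA and ChREBP it was found in 1, that of *Pklr*, the pyruvate kinase gene of liver and red cells. The E-box occurred in 4 of these 13, those of *Bhlhe40*, *Bhlhe41*, *Fgf21* and *Pfkfb3*, which are not printed. The 13 include *Thrsp* and *G6pc1*, which were not tested for expression. Promoters of the targets *Klf10*, *Fasn*, *Elovl6*, *Acaca* and *Gpd1* were not at hand. In the sequences below, capitals mark the E-box, with its first base at -177 in *Arrdc4* (chr1:131793376-131793675, minus strand) and at -70 in *Mlx* (chr10:86519636-86519935, plus strand), and the paired element from -168 in *Pklr* (chr2:176841014-176841313, plus strand).
Arrdc4: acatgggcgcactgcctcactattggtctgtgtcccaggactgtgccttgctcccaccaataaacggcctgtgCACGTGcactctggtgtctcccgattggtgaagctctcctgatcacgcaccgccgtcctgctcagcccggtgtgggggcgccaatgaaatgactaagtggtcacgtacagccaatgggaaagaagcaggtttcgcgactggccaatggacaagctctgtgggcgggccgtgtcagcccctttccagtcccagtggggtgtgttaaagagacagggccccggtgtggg
Mlx: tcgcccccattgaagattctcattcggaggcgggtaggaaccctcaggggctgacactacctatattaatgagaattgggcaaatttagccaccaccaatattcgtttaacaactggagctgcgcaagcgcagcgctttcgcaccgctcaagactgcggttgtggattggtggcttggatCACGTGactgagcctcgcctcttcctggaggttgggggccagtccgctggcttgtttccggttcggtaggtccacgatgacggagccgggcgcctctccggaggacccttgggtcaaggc
Pklr: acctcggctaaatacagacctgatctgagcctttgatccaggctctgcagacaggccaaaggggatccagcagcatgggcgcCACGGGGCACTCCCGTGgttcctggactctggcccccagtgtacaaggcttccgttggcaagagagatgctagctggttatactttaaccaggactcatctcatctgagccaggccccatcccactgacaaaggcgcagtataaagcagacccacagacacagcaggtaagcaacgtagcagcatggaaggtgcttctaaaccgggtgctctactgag
A match is a description of letters in this window and not a measure of binding.

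Of the 9 genes, *Slc2a1*, *Slc2a3* and *Txnip* were higher in HG hearts and *Slc2a4* was lower (adjusted p under 0.05 in limma, Benjamini-Hochberg over 14542 genes), while *Slc2a8*, *Arrdc4*, *Mlx*, *Mlxip* and *Mlxipl* did not pass the test. None of the 9 passed the threshold of the study, which also asks for a fold change above 2. The background of calls was high, at 40.1% of all genes tested in either direction, 28.4% higher and 11.8% lower in HG, and 1.94% past the threshold of the study. Calls on 4 of 9 genes are therefore close to the share among all genes. The groups of libraries did not overlap for *Slc2a3*, *Slc2a4* and *Txnip*, against 27.4% of all genes. Scaling mattered for the direction of the calls over all genes, of which 70.7% were higher in HG with FPKM as deposited and 47.1% after median-of-ratios factors. With those factors *Slc2a1* was no longer called, and *Mlx* and *Mlxip* were called lower.

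**Figure D1:**
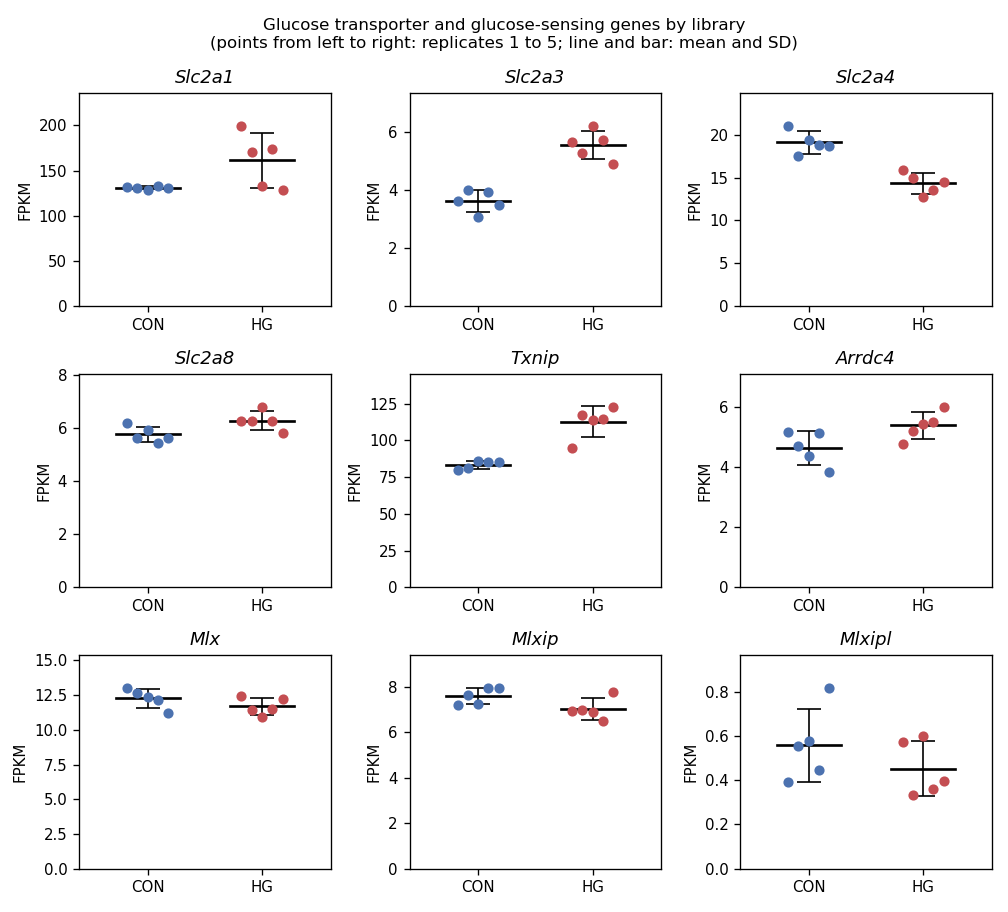
FPKM of the 9 genes in each of the 10 libraries, 1 panel per gene with its own linear axis from 0, points from left to right being replicates 1 to 5 of CON (blue) and HG (red), and the line and bar giving the mean and SD. *Slc2a3* and *Txnip* lie higher and *Slc2a4* lower in every HG library, while *Slc2a1* spreads from 128.6 to 199.9 FPKM in HG.

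*Slc2a1*, the most abundant of the 9 genes in both groups, stood at 131.9, 131.1, 128.9, 133.3 and 130.3 FPKM in CON 1 to 5 and at 199.9, 171.0, 132.9, 174.2 and 128.6 FPKM in HG 1 to 5. HG 1, HG 2 and HG 4 were above every CON library, HG 3 lay within the CON range and HG 5 just below it, so the groups overlapped. The CON libraries averaged 131.1 ± 1.66 FPKM and the HG libraries 161.3 ± 30.1 (SD, n = 5 per group, as for all later means). The log2 fold change was 0.28 (SE 0.102, limma adjusted p = 0.0451), a 1.21-fold difference on the log2(FPKM + 0.1) scale with a 95% interval of 1.04 to 1.41. The spread among CON libraries, a coefficient of variation of 1.26%, was no wider than the 1.28% that counting 5853 to 6243 reads alone gives, whereas that among HG libraries was 18.7% against 1.16%. The call held in 9 of 22 alternatives, with adjusted p-values between 0.00949 and 0.213. It was lost without any single CON library (adjusted p of 0.0677 or more) and without HG 1 (0.0946), HG 2 (0.0940) or HG 4 (0.0966).

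The HG libraries fell in the same order for *Slc2a1* as for the summed level of the 8 cardiomyocyte genes, which was 17838 FPKM in HG 1, 17828 in HG 4, 16941 in HG 2, 15800 in HG 3 and 15338 in HG 5. In CON the orders differed. CON 4 had the highest *Slc2a1* (133.3 FPKM) with a cardiomyocyte sum of 19724 FPKM. The highest CON sum was that of CON 5 (20324), where *Slc2a1* stood at 130.3 FPKM. Across the 10 libraries the deviations of both measures from their group means had a Pearson r of 0.90. This r draws mainly on the HG libraries, since *Slc2a1* hardly varied in CON. The sum is led by *Actc1*, which alone averaged 10910.5 FPKM in CON and 9821.25 in HG. The r therefore need not hold for all 8 genes. Both measures share library and FPKM denominator, and their relation was looked for after the values were seen. Between the groups the direction was opposite, since the HG hearts had lower levels of 7 of the 8 cardiomyocyte genes (0 higher, median difference -0.46 on the log2 scale) and *Slc2a1* was higher. The genes whose deviations were most like those of *Slc2a1* among 11708 genes were *Wipf2* (r = 0.98), a regulator of actin assembly, *Mfn2* (0.96), which fuses mitochondria, and *Actc1* (0.93), cardiac α-actin. *Actc1* is itself among the 8 summed genes. Red cells also carry GLUT1, and the 10 red cell precursor genes summed to 64.6 to 116.0 FPKM in CON and 43.1 to 61.6 in HG, with 5 of 10 lower and 0 higher. What part these cells have in the level of *Slc2a1* was not tested, and in bulk samples fewer cells of a type cannot be told apart from less RNA per cell.

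**Figure D2:**
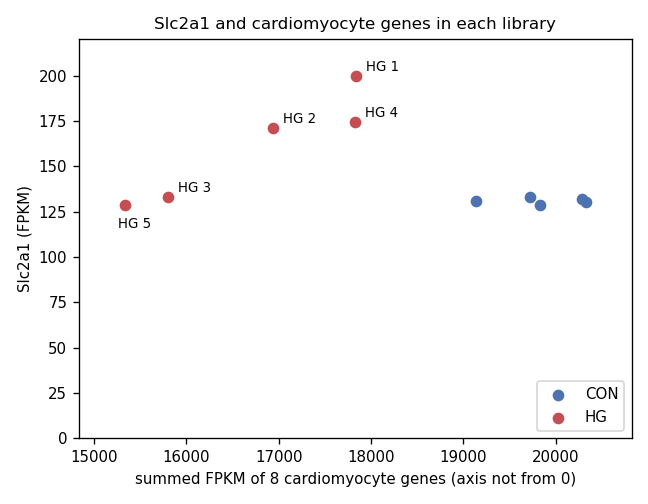
*Slc2a1* (FPKM, linear axis from 0) against the summed FPKM of 8 cardiomyocyte genes (axis not from 0), 1 point per library, CON blue and HG red with the HG libraries named. CON libraries lie together at 128.9 to 133.3 FPKM of *Slc2a1*, while in HG both measures are lowest in HG 5 and highest in HG 1.

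*Slc2a4*, the insulin-responsive transporter, was present at 21.1, 17.6, 19.4, 18.8 and 18.6 FPKM in CON 1 to 5 and at 15.9, 15.0, 12.8, 13.6 and 14.4 in HG 1 to 5. Every HG library was below every CON library. The mean fell from 19.1 ± 1.29 to 14.3 ± 1.20 FPKM, a log2 fold change of -0.41 (SE 0.0642, limma adjusted p = 0.000372), and *Slc2a4* stayed lower past the test in 22 of 22 alternatives, with adjusted p-values from 0.000147 to 0.00152. This difference was near the median over the 8 cardiomyocyte genes (-0.46), which ran from -1.03 (*Myh6*) to -0.16 (*Actc1*, not called). The deviations of *Slc2a4* had an r of 0.45 with those of the summed cardiomyocyte genes. With the endothelial sum it was 0.50, and with the platelet and megakaryocyte sum 0.48. The part of these cells in the difference was not tested. *Slc2a4* deviated most like *Fbxo40* (r = 0.93), a muscle F-box gene that was itself lower in HG (18.2 ± 0.601 against 9.08 ± 0.421 FPKM), *Ciapin1* (0.90) and *Zscan12* (0.88), of which *Ciapin1* and *Zscan12* were not called.

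*Slc2a3*, the high-affinity transporter, stood at 3.63, 4.00, 3.08, 3.93 and 3.46 FPKM in CON 1 to 5 and at 5.64, 5.27, 6.21, 5.71 and 4.89 in HG 1 to 5. The groups did not overlap. Its log2 fold change of 0.60 was the largest in size of the 9 (3.62 ± 0.372 to 5.54 ± 0.497 FPKM, SE 0.0859, limma adjusted p = 0.000206), and the gene stayed higher past the test in 22 of 22 alternatives. *Slc2a3* is also a gene of neurons and of white blood cells. The neuron and glia list (3 of 6 genes tested) summed to 6.84 to 8.10 FPKM in CON and 5.60 to 7.57 in HG, with 2 genes lower and 0 higher. The 7 macrophage genes summed to 37.9 to 49.5 FPKM in CON and 46.3 to 58.2 in HG, with 2 higher and 0 lower. Over all genes tested, 28.4% were higher and 11.8% lower. The deviations of *Slc2a3* had an r of -0.11 with those of the neuron and glia sum and of -0.58 with those of the macrophage sum. The part of these cells in the difference was not tested.

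*Slc2a8*, the intracellular transporter, ranged from 5.44 to 6.19 FPKM in CON (median 5.65) and from 5.83 to 6.82 in HG (median 6.27). HG 5 lay within the CON range and the other 4 HG libraries above it. The log2 fold change of 0.12 (95% interval -0.00 to 0.25, limma adjusted p = 0.115) did not pass the test in the main setting or in any of the 22 alternatives.

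Ratios within a library do not depend on its scaling. *Slc2a1* exceeded *Slc2a4* by 6.26 to 7.47 times in CON and by 8.90 to 12.8 times in HG, without overlap. The ratio of *Slc2a3* to *Slc2a4* was 0.159 to 0.228 in CON and 0.338 to 0.486 in HG, also without overlap, whereas that of *Slc2a1* to *Slc2a3* overlapped (32.8 to 41.9 and 21.4 to 35.5). Of the summed FPKM of the 12 Slc2a genes listed, *Slc2a1* made up 78.6 to 80.2% in CON and 80.9 to 86.0% in HG, and *Slc2a4* 10.7 to 12.6% and 6.64 to 9.14%. The sum itself was 162.4 to 167.8 FPKM in CON and 157.9 to 232.3 in HG, with HG 3 (164.3) inside and HG 5 below the CON range.

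**Figure D3:**
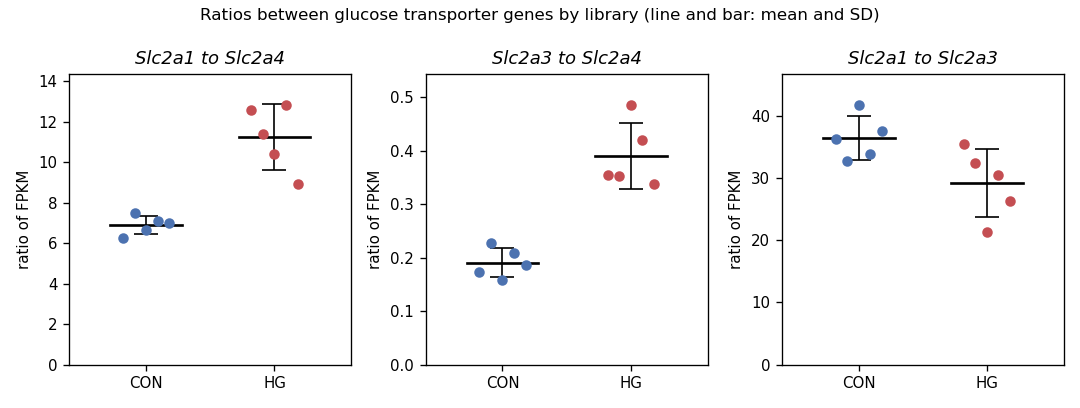
Ratios of FPKM between *Slc2a1*, *Slc2a3* and *Slc2a4* within each library, linear axes from 0, points for CON (blue) and HG (red) and the line and bar for the mean and SD of 5 libraries. Both ratios to *Slc2a4* are higher in every HG library than in any CON library, and the ratio of *Slc2a1* to *Slc2a3* overlaps between the groups.

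*Txnip*, which binds thioredoxin and draws GLUT proteins from the surface, was the second most abundant of the 9 genes, at 79.7, 81.4, 85.7, 85.5 and 85.1 FPKM in CON 1 to 5 and 94.7, 117.3, 113.6, 114.8 and 122.9 in HG 1 to 5. Every HG library was above every CON library, with HG 1 nearest to them. The mean rose from 83.5 ± 2.77 to 112.7 ± 10.7 FPKM, a log2 fold change of 0.43 (SE 0.0603, limma adjusted p = 0.000193), and it stayed higher past the test in 22 of 22 alternatives. The deviations of *Txnip* and *Slc2a1* from their group means had an r of -0.70 over 10 libraries, which share their FPKM denominators. This opposition was mainly in HG (r = -0.73) and weak in CON (r = -0.28). HG 1 had the highest *Slc2a1* and the lowest *Txnip* of HG, and HG 5 the reverse. The summed level of 7 smooth muscle and pericyte genes, of which 3 were higher and 2 lower in HG, was 778 to 902 FPKM in CON and 989 to 1242 in HG, and its deviations from the group means had an r of -0.86 with those of *Txnip*, so that within a group it was low where *Txnip* was high. Most of that sum was *Acta2*, which averaged 538 FPKM in CON and 673 in HG, so the r need not hold for the other genes of the list. The part of these cells was not tested. The genes most like *Txnip* in their deviations were *Tom1* (r = 0.95), *Snx32* (0.92) and *Frg1l1* (0.91).

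*Arrdc4*, the paralog of *Txnip*, was at 5.17, 4.71, 4.37, 5.12 and 3.84 FPKM in CON 1 to 5 and 4.77, 5.21, 5.44, 5.49 and 6.01 in HG 1 to 5. HG 1 lay within the CON range and the other 4 HG libraries above it. The log2 fold change of 0.21 (95% interval 0.02 to 0.41) did not pass the test over all genes (limma adjusted p = 0.0760) and passed it in 1 of 22 alternatives, that without HG 1 (0.0490). The ratio of *Txnip* to *Arrdc4* overlapped between the groups, at 15.4 to 22.2 in CON and 19.8 to 22.5 in HG.

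None of the 3 factor genes passed the test with FPKM as deposited and all libraries. *Mlxip*, which encodes MondoA, was at 7.205, 7.65, 7.25, 7.95 and 7.96 FPKM in CON 1 to 5 and 6.96, 7.00, 6.90, 6.48 and 7.79 in HG 1 to 5. All HG libraries but HG 5 were below the lowest CON library. The log2 fold change was -0.11 (limma adjusted p = 0.145) as deposited, -0.20 after median-of-ratios factors (adjusted p = 0.0120) and -0.20 after quantile normalization (0.0107). Without HG 5 it was -0.15 with FPKM as deposited (adjusted p = 0.0489), so that the side of the threshold turned on that library. *Mlx*, the shared partner, ranged from 11.2 to 13.0 FPKM in CON (median 12.3) and from 10.9 to 12.4 in HG (median 11.5), and its log2 fold change was -0.07 (limma adjusted p = 0.338), or -0.16 after median-of-ratios factors (0.0417). *Mlxipl*, which encodes ChREBP, was the lowest of the 9 at 0.393 to 0.820 FPKM in CON (median 0.558) and 0.332 to 0.601 in HG (median 0.397), on 24 to 57 reads per library. Its log2 fold change of -0.25 had a 95% interval of -0.69 to 0.19 and did not pass the test (limma adjusted p = 0.356). The coefficient of variation of *Mlxipl*, 29.4% in CON and 27.6% in HG, was above the 15.9% and 17.7% that counting gives. *Mlxip* exceeded *Mlxipl* 9.71 to 18.3 times in CON and 11.5 to 21.1 times in HG.

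**Figure D4:**
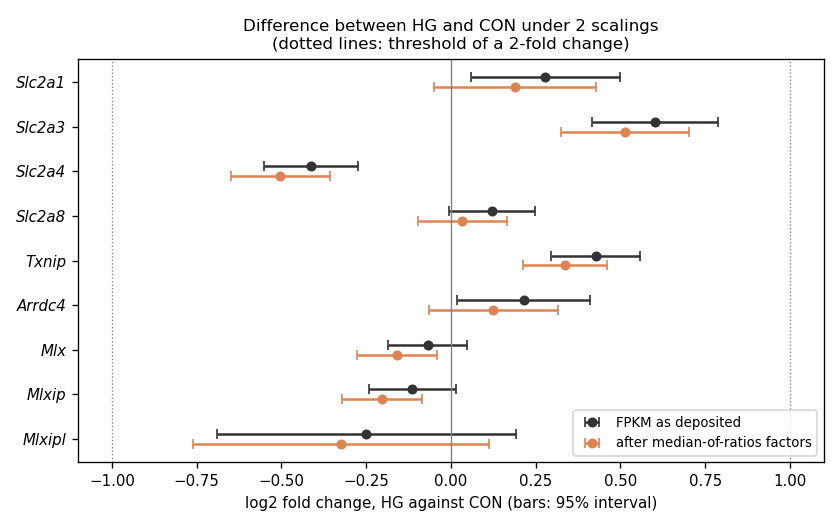
log2 fold change of HG against CON for the 9 genes with 95% intervals, with FPKM as deposited (black) and after median-of-ratios factors (orange), dotted lines marking a 2-fold change. The intervals of *Slc2a3*, *Slc2a4* and *Txnip* lie away from 0 under both scalings, that of *Slc2a1* reaches 0 under the second, and those of *Mlx* and *Mlxip* leave 0 only under the second.

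By level, the order in CON was *Slc2a1*, *Txnip*, *Slc2a4*, *Mlx*, *Mlxip*, *Slc2a8*, *Arrdc4*, *Slc2a3* and *Mlxipl*, and among neighbours only the ranges of *Arrdc4* and *Slc2a3* overlapped. In HG, *Slc2a3* stood above *Arrdc4* in 4 of 5 libraries, and the ranges overlapped between *Mlxip* and *Slc2a8*, *Slc2a8* and *Slc2a3*, and *Slc2a3* and *Arrdc4*.

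Around these 9 genes, 86 other genes of glucose uptake, phosphorylation and sensing were listed by function, of which 82 were in the table and 72 were tested. In HG, 22 were higher and 12 lower, together 47.2% of those tested, not far from the 40.1% of all genes. After median-of-ratios factors 9 were higher and 17 lower, where 15.6% of all genes were higher and 17.5% lower.

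Of the 8 other Slc2a transporters, 5 were tested, with 1 higher and 1 lower. *Slc2a13*, a proton and myo-inositol cotransporter, fell from 2.00, 2.38, 2.30, 2.16 and 2.49 FPKM in CON 1 to 5 to 1.01, 1.48, 1.59, 1.16 and 1.48 in HG 1 to 5, without overlap (log2 fold change -0.73, SE 0.125, limma adjusted p = 0.000723, called in 22 of 22 alternatives). *Slc2a6* was at 0.0797 to 0.387 FPKM in CON (median 0.129) and 0.254 to 0.678 in HG (median 0.460), overlapping, on as few as 3 reads per library. Its difference of 0.97 on the log2 scale (limma adjusted p = 0.0386) was called in 12 of 21 alternatives. The call was lost without CON 3, 4 or 5 or HG 1, 2 or 3. It was also lost after median-of-ratios factors (limma adjusted p = 0.0599), after quantile normalization (0.0719) and without the trend (0.0527). *Slc2a9* (0.303 ± 0.0666 against 0.399 ± 0.0872 FPKM), *Slc2a10* (1.63 ± 0.178 against 1.78 ± 0.199) and *Slc2a12* (0.619 ± 0.0814 against 0.634 ± 0.103) were not called. *Slc2a2*, the liver and islet transporter, *Slc2a5*, the fructose transporter, and *Slc2a7* were below the filter, as were all 4 listed sodium-glucose cotransporter genes.

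Of 15 genes of GLUT4 vesicle traffic, 5 were higher and 0 lower, with a median log2 fold change of 0.02 against 0.09 over all genes tested. After median-of-ratios factors 1 was higher, *Rab13*, and 3 were lower. *Rab13*, a small GTPase of GLUT4 vesicles, rose from 30.9 ± 1.02 to 40.5 ± 3.44 FPKM without overlap (0.39, limma adjusted p = 0.000178), and *Stxbp3*, which controls vesicle fusion, from 15.0 ± 1.33 to 17.2 ± 1.08 FPKM with overlap (0.20, adjusted p = 0.0234, or 0.180 after median-of-ratios factors). Among the hexokinases, *Hk1* (157.0 ± 5.15 against 154.7 ± 9.70 FPKM) and *Hk2* (29.8 ± 1.91 against 31.5 ± 3.68) were not called, and *Hk3* and *Hkdc1* were below the filter. *Gckr*, a regulator of glucose phosphorylation in liver, fell from 2.66, 3.24, 3.02, 2.71 and 3.26 FPKM in CON 1 to 5 to 1.64, 1.80, 1.64, 1.63 and 0.993 in HG 1 to 5, without overlap (-0.93, SE 0.140, adjusted p = 0.000310). Beside it, 7 liver genes, 4 of them lower in HG and 0 higher, summed to 81.1 FPKM in CON 3, 3.15 to 8.15 in the other CON libraries and 1.33 to 2.60 in HG. Without CON 3 the log2 fold change of *Gckr* was -0.92 (adjusted p = 0.00109), and the part of liver tissue in its level was not tested.

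Of 16 tested target genes of MondoA and ChREBP other than *Txnip* and *Arrdc4*, 5 were higher, 2 lower and 9 not called. Over all genes tested, 28.4% were higher and 11.8% lower. The median log2 fold change of the 16 was 0.24, against 0.09 over all genes tested. After median-of-ratios factors 4 were higher and 3 lower, with a median of 0.15 against 0.0058. The higher ones with FPKM as deposited were *Klf10*, a zinc finger repressor (8.11 ± 0.587 to 12.4 ± 1.25 FPKM, 0.60, limma adjusted p = 7.4e-05), and 4 genes of fatty acid synthesis. Among these *Acly*, which makes cytosolic acetyl-CoA, rose from 32.4 ± 1.87 to 43.2 ± 1.57 FPKM (0.42, adjusted p = 2.8e-05), *Elovl6* by 0.52, *Fasn* by 0.35 and *Acaca* by 0.20 on the log2 scale. *Acaca* kept its call in 17 of 22 alternatives and lost it after median-of-ratios factors (adjusted p = 0.219). *Pklr*, whose promoter is printed above, had the lowest fold change of these genes and was named for that after its values were seen. It fell from 1.13, 0.809, 1.14, 0.570 and 0.746 FPKM in CON 1 to 5 to 0.378, 0.273, 0.127, 0.285 and 0.301 in HG 1 to 5, without overlap (-1.39, SE 0.228, adjusted p = 0.000522, called in 21 of 21 alternatives). The other lower gene, *Acacb*, the acetyl-CoA carboxylase of the mitochondrial surface, fell by 0.23 on the log2 scale (adjusted p = 0.0204). Without CON 3, the library with the highest liver genes, the log2 fold change was -1.30 for *Pklr* (adjusted p = 0.00184). The part of liver and red cells in the level of *Pklr* was not tested.

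Of 10 partners in the Mlx and Max network, 4 were higher and 1 lower (2 and 1 after median-of-ratios factors). *Mycn* rose from 12.9 ± 0.876 to 20.6 ± 2.55 FPKM without overlap (0.66, limma adjusted p = 6.6e-05) and *Mycl*, at a low level, from 0.0907 ± 0.0441 to 0.222 ± 0.0469 FPKM (0.77, adjusted p = 0.0137), while *Max* and *Myc* were not called. Of the other α-arrestins, *Arrdc1* (9.38 ± 0.244 to 10.3 ± 0.603 FPKM) and *Arrdc3* (8.53 ± 0.431 to 9.87 ± 0.944) were higher and *Arrdc2* was not called. *Arrdc1* and *Arrdc3* held their calls in 10 and 13 of 22 alternatives and lost them after median-of-ratios factors.

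Of 8 genes of the thioredoxin system and of Txnip turnover, 3 were higher and 3 lower (1 and 3 after median-of-ratios factors, *Txnrd1* being the 1). The cytosolic genes *Txnrd1* (28.4 ± 0.908 to 36.2 ± 2.07 FPKM, 0.35, limma adjusted p = 1.0e-04) and *Txn1* (0.29, adjusted p = 0.00584) were higher, and the mitochondrial genes *Txnrd2* (-0.31, adjusted p = 0.00794) and *Txn2* (-0.19, adjusted p = 0.0281) were lower. *Usp5*, a deubiquitinase, was higher (0.16, adjusted p = 0.00413), and *Itch*, the ubiquitin ligase of Txnip, was not called (0.07, adjusted p = 0.278).

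Of 12 transcription factors of *Slc2a1* and *Slc2a4*, 2 were higher and 4 lower (1 and 5 after median-of-ratios factors). *Klf15*, a factor of *Slc2a4* in muscle and heart, fell from 7.51 ± 0.146 to 5.05 ± 0.667 FPKM without overlap (-0.57, limma adjusted p = 0.000183). *Mef2d*, *Epas1* and *Thra* were lower by smaller amounts, with log2 fold changes of -0.14, -0.23 and -0.13. Of 22 alternatives, *Epas1* held its call in 22, *Mef2d* in 15 and *Thra* (limma adjusted p = 0.0486) in 12. *Sp1*, a factor of *Slc2a1*, rose from 12.3 ± 0.293 to 14.5 ± 0.799 FPKM (0.23, adjusted p = 0.00173) and *Sp3* by 0.20 on the log2 scale, while *Hif1a* (-0.05, adjusted p = 0.599) and *Mef2a* (-0.01, adjusted p = 0.867) were not called.

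**Figure D5:**
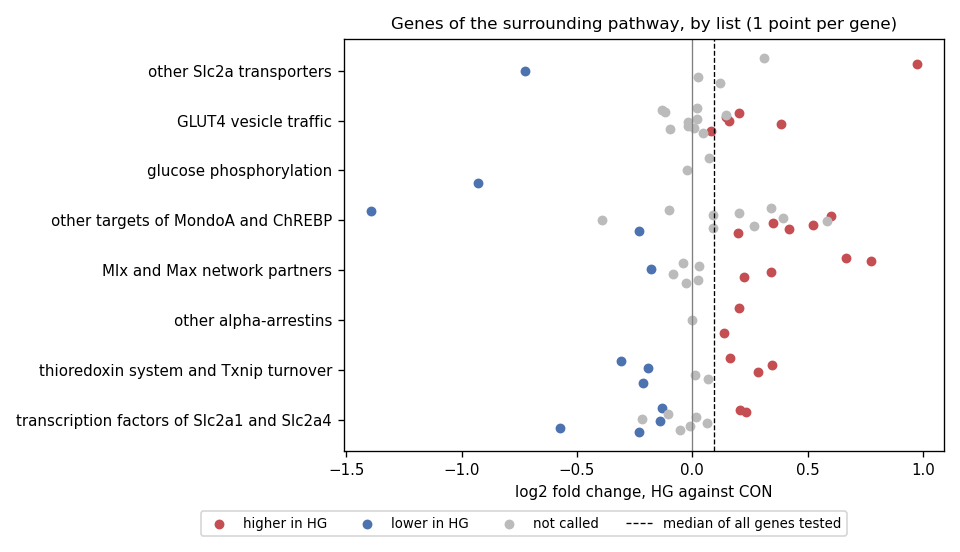
log2 fold change of HG against CON for the 72 tested genes of the surrounding pathway, 1 point per gene, in 8 lists, red for higher in HG, blue for lower and grey for not called, with a dashed line at the median of all genes tested (0.09). The lowest points are *Pklr* at -1.39 and *Gckr* at -0.93, and the highest is *Slc2a6* at 0.97.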

How the data were processed

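mRNA libraries (TruSeq Stranded) were made from fetal hearts and are labelled as 10 separate samples, 5 per group. The methods of the study also speak of pooled RNA of the samples. The deposited columns differ from library to library, but if RNA was pooled within a library, the SD and p-values describe pools and not single hearts. The deposited values are FPKM, which the authors calculated per gene. The submitters' processing notes name fastp, HISAT2, HTSeq, R 3.2.0 and the build mRatBN7.2, and the strand setting is not given in the sources used here. FPKM of low genes stepped by whole reads, from which 16672876 to 19109844 reads on genes per library were recovered (all values within 0.02 reads of a whole number), and counting intervals cover counting error only. The counting coefficient of variation is that of Poisson counts at each gene's reads.

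The 14542 genes averaging 0.1 FPKM or more (3483 did not) were tested as log2(FPKM + 0.1) in limma 3.58.1 with a trend (R 4.3.3) and Benjamini-Hochberg adjustment, so that fold changes of low genes are understated. The study's threshold was taken as an adjusted p under 0.05 with a log2 fold change beyond 1. The study's own test uses counts, but the file holds FPKM, so voom on the recovered reads was run as an alternative. The procedure was tested on simulated data with independent libraries and no shift in scale. Such data cannot speak to shared litters or to the choice of scaling. Library pairs correlated at 0.977 to 0.992. The p-values weigh the difference between the groups against the spread between these libraries. As nothing states that the libraries came from separate litters, this spread may understate that between mothers.

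The 9 genes, the pathway lists and the marker lists were chosen with earlier results of these data known. All 9 were described, together with every tested gene of the other Slc2a transporters, the 2 genes of smallest adjusted p in each other list, and, for *Slc2a1*, *Slc2a4* and *Txnip*, the 3 genes, averaging 1 FPKM or more, of highest Pearson r of deviations from group means over 10 libraries. Genes named beyond this rule, such as *Pklr*, *Fasn*, *Elovl6*, *Txn1*, *Txn2*, *Txnrd2*, *Hk1*, *Itch* and *Hif1a*, and the relations to marker lists were chosen after the values were seen. Of the listed pathway genes, 2 are not reported here. The 22 alternatives cover pseudocounts, filters, scaling, weights, a replicate block, Y chromosome genes as a covariate, voom and each library left out. Promoters came from RefSeq (GRCr8), matched by symbol.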

Additional observations from a re-analysis of the deposited data

Results flagged for a closer look

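Among 58 sets of 5 libraries tested for 1 library standing apart, that is 29 genes in each of CON and HG, 2 exceeded the critical value of 0.71 for the gap to the nearest library over the range, and chance alone flags about 1 in 20. *Stxbp3* was at 19.2 FPKM in HG 5, with the other HG libraries at 16.6 to 17.0. *Gckr* was at 0.993 FPKM in HG 5, with the others at 1.63 to 1.80, and without HG 5 its log2 fold change was -0.79 in place of -0.93. None of the 9 glucose transporter and glucose-sensing genes had such a library in either group.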

How the results depend on the processing

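Over 22 alternatives, *Slc2a3*, *Slc2a4* and *Txnip* kept their direction and call in all 22, *Slc2a8* stayed uncalled in all 22 and *Mlxipl* in the 21 in which it was tested, while *Slc2a1* lost its call in 13. Of the 9 genes, 1 was lower in HG as deposited, 3 with median-of-ratios factors and 3 with quantile normalization (*Slc2a4*, *Mlx* and *Mlxip*), and 1 to 2 with 1 library left out, the 2 being without HG 5. Of the pathway genes, 22 were higher as deposited, 9 with median-of-ratios factors and 12 with quantile normalization. Of these genes 12 were lower as deposited and 8 to 11 with 1 library left out, the lowest count being that without CON 3, CON 4 or HG 1. Median-of-ratios factors moved the median log2 fold change of all genes from 0.09 to 0.01. The log2 fold change of *Slc2a12* (0.03) turned to -0.0515 under median-of-ratios factors and -0.0547 under quantile normalization, and ranged from -0.0429 to 0.0646 with 1 library left out, and that of *Hk2* (0.07) turned to -0.0164 after median-of-ratios factors. Over 29 genes and all alternatives, 632 log2 fold changes were computed, of which 569 kept their direction and call, 50 lost and 6 gained a call and 7 changed sign, and 53 of 396 counts over single lists moved by over 1.5 times. The cause of these shifts was not tested. No pairing by replicate number was visible, as the deviations of same-numbered CON and HG libraries correlated at -0.13 to 0.11, with 1 of 5 above 0.1. Whether same-numbered libraries were collected or handled together cannot be read from these correlations. With the number as a replicate block, 3 of the 9 genes were higher and 1 lower, and of the pathway genes 17 were higher and 11 lower. At 24 to 57 reads, counting alone gives *Mlxipl* a coefficient of variation of 15.9% in CON and 17.7% in HG, below the spread between libraries.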
